A study of Drosophila melanogaster with 12 samples.

Results

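The genes for the proteins of the cytoplasmic ribosome were followed in Drosophila melanogaster ovaries labelled as germline knockdowns of a chromatin or a nuclear pore factor, and in control ovaries. The set holds every gene with a symbol of the form RpL or RpS followed by a digit or a P, apart from RpS19a, RpS19b, RpL22, RpL22-like, RpS10a, RpS10b, RpS5a, RpS5b, RpL37-1 and RpL37-2, which were left out as paralogs. It came to 78 of the 17023 genes counted, 47 of them for the large and 31 for the small subunit. RpL19, RpL27A, RpL31 and RpS12 carry the same form of symbol, but no identifier in the files was paired with them and they were not analysed here. All 78 follow from the rule on names, which was set with earlier results of these data known. They therefore include RpLP0-like and RpL24-like, whose yeast homologs act in ribosome assembly.

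Poly(A) mRNA of whole ovaries, dissected 1 to 3 days after eclosion, was sequenced in sets of n = 2 libraries. In 3 of them the germ cells carried a knockdown, labelled GKD, whose target was SETDB1, wde or Nup154. SETDB1 is a histone methyltransferase that acts on lysine 9 of histone H3, Wde works with it, and Nup154 belongs to the nuclear pore, with its depletion serving here as the control for development. Both other sets carry the genotype label young control, and their titles tell them apart as NGVP16 libraries and virgin libraries. The title of virgin control 1 reads DcrVirgin and that of virgin control 2 reads VIRGIN. Whether these libraries share 1 genotype beyond that label is not stated, so their spread may hold more than replicate differences. Apart from the tags NGVP16 and Dcr in titles, the labels name no driver, RNAi line, fly strain or number of flies. Nothing says that the replicates came from separate crosses. The p-values therefore speak for the spread of these libraries alone, part or all of which may be technical. A further pair labelled adult control was left out of every comparison. In whole ovaries, fewer cells of a type and less RNA per cell cannot be told apart.

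A ribosome has a large and a small subunit, each built of ribosomal RNA and a fixed set of proteins, nearly all needed in equal numbers. Ribosomal protein mRNAs are short, abundant and translated together under the control of the TOR pathway, and in flies many of the genes are Minute loci, at which loss of 1 copy slows growth. RNA polymerase I and a large set of nucleolar factors make and assemble the subunits. In the fly ovary, germline stem cells and nurse cells make ribosomes at a high rate, and the egg is supplied with them by the nurse cells.

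The 10 libraries held from 7351948 to 20162235 counts. Of the targeted genes, Nup154 was at 78.2 and 73.8 CPM (the count scaled to a common library size) in Nup154 GKD against 144 and 224 in the NGVP16 pair, and fell (-1.28 ± 0.31 on the log2 scale, edgeR adjusted p = 0.0121). egg, which encodes SETDB1, was at 31.8 and 37.8 CPM in SETDB1 GKD against 34.3 and 70.8, and wde at 74.4 and 92.9 CPM in wde GKD against 43.1 and 143, and neither was called (edgeR adjusted p = 0.206 and 0.81). The names SETDB1 GKD and wde GKD below therefore stand for libraries so labelled. Markers of cell types differed between knockdown and control ovaries. The germline markers aub, osk, orb, bam and Rbp9 together took 0.0384% to 0.0772% of the counts in the 6 knockdown libraries and 0.237% to 0.442% in the 4 controls. Of these aub, osk, orb and bam were each below all 4 controls in all 6, with osk at 92.2 to 323 CPM against 1759 to 2692, whereas Rbp9 was above them, at 129.7 to 204 CPM against 12.9 to 27.4. Eggshell genes took 0.00558% to 0.152% against 0.315% to 0.823%. Genes of the muscle sheath took 1.94% to 2.49% against 0.217% to 0.355%, and hemocyte genes 0.111% to 0.319% against 0.00367% to 0.00907%. Follicle cell markers took 0.0932% to 0.124% against 0.0299% to 0.0472%. Of these Fas3, cv-2 and mirr were above all 4 controls in all 6, with Fas3 at 586 to 939 CPM against 48.5 to 71.5, while tj overlapped, at 195 to 389 CPM against 241 to 391, and slbo was at 0.458 to 6.10 CPM against 0.635 to 9.65. Fat body genes overlapped, at 0.0506% to 0.312% against 0.0654% to 0.175%, and so did gut genes, which reached 0.102% in SETDB1 GKD 1. The part of this tissue makeup in the results below was not tested.

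The ribosomal protein genes were among the most abundant mRNAs in every library, and 1 control library stood apart. They took 9.28% and 11.8% of all counts in SETDB1 GKD, 7.31% and 8.98% in wde GKD and 10.4% and 10.5% in the Nup154 knockdown. In the controls they took 23.1% in NGVP16 control 1, 9.10% in NGVP16 control 2, 15.4% in virgin control 1 and 12.1% in virgin control 2. The exact 95% binomial interval of each share reached at most 0.0289 percentage points to either side, and it covers counting error only. NGVP16 control 1 was thus above all other libraries, while NGVP16 control 2 fell within the range of the knockdowns.

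Averaged over libraries, the share was 9.71% ± 1.54 (SD, n = 6) in the knockdowns and 14.9% ± 6.03 (SD, n = 4) in the controls. The difference of -5.23 percentage points had p = 0.0667 in an exact two-sided permutation test. The test treated all libraries as exchangeable and ignored their sets. Here and below n counts libraries, pooled over 3 knockdowns or both control pairs, and not replicates of 1 condition. Without NGVP16 control 1 the controls came to 12.2% ± 3.18 (SD, n = 3), the difference to -2.51 points and the exact permutation p to 0.167. Counted per kilobase of exon, the share was 23.3% ± 3.40 against 31.3% ± 7.26, with an exact permutation p = 0.0667. The difference did not pass the test in any of these forms, and the NGVP16 libraries differed from each other by more than the group means did.

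**Figure D1:**
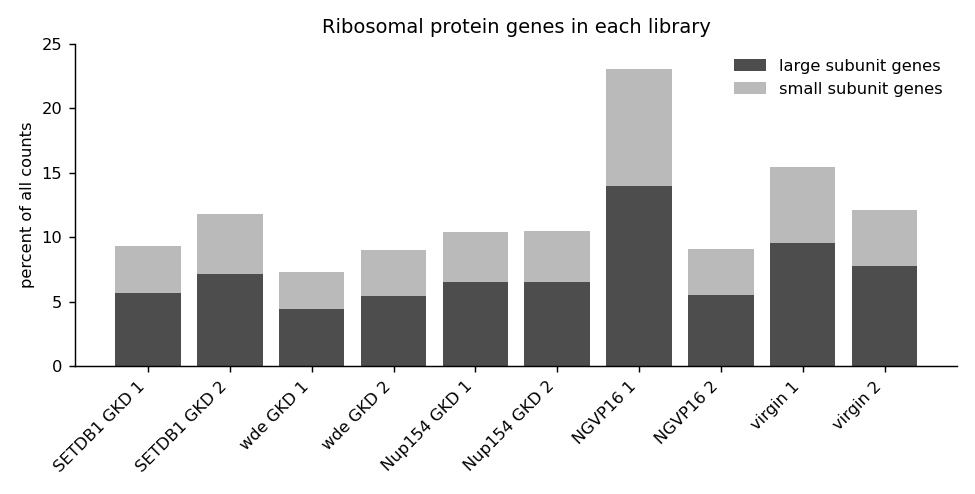
Percent of all counts taken by the 78 ribosomal protein genes in each of the 10 libraries, split into large subunit genes (dark) and small subunit genes (light). NGVP16 1 reaches 23.1%, the other control libraries 9.10% to 15.4%, and the knockdown libraries 7.31% to 11.8%.

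The ratio of the subunits did not pass a test between knockdowns and controls, which does not show that it was the same. The counts of small subunit genes over those of large subunit genes came to 0.629 ± 0.0246 (SD, n = 6) in the knockdowns and 0.619 ± 0.0456 (SD, n = 4) in the controls, and the difference of 0.0104 had an exact two-sided permutation p = 0.638. Large subunit genes took 5.96% ± 0.969 against 9.21% ± 3.59 of the counts, with an exact permutation p = 0.0667. Small subunit genes took 3.75% ± 0.587 against 5.73% ± 2.45, with an exact permutation p = 0.0952. The lowest ratio of the subunits, 0.553, was that of virgin control 2, followed by Nup154 GKD at 0.596 and 0.602. SETDB1 GKD had 0.636 and 0.651 and wde GKD 0.643 and 0.650. The other controls had 0.623 in virgin control 1 and 0.650 in each NGVP16 library. The difference between the knockdowns in this ratio was not tested.

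Nearly all single genes had their highest level in the same library. Levels are given in CPM after scaling by TMM, a method that equalizes the bulk of genes between libraries. Of the 78 genes, 74 passed the filter on low counts and were tested. NGVP16 control 1 was the highest of the 10 libraries for 71 of these 74 and virgin control 1 for the other 3. The lowest was wde GKD 1 for 53 genes and NGVP16 control 2 for 9. The median gene had 3223 CPM in NGVP16 control 1, 1067 in NGVP16 control 2, 2067 in virgin control 1 and 1588 in virgin control 2. In the knockdown libraries the median gene ran from 945 CPM in wde GKD 1 to 1512 in SETDB1 GKD 2.

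**Figure D2:**
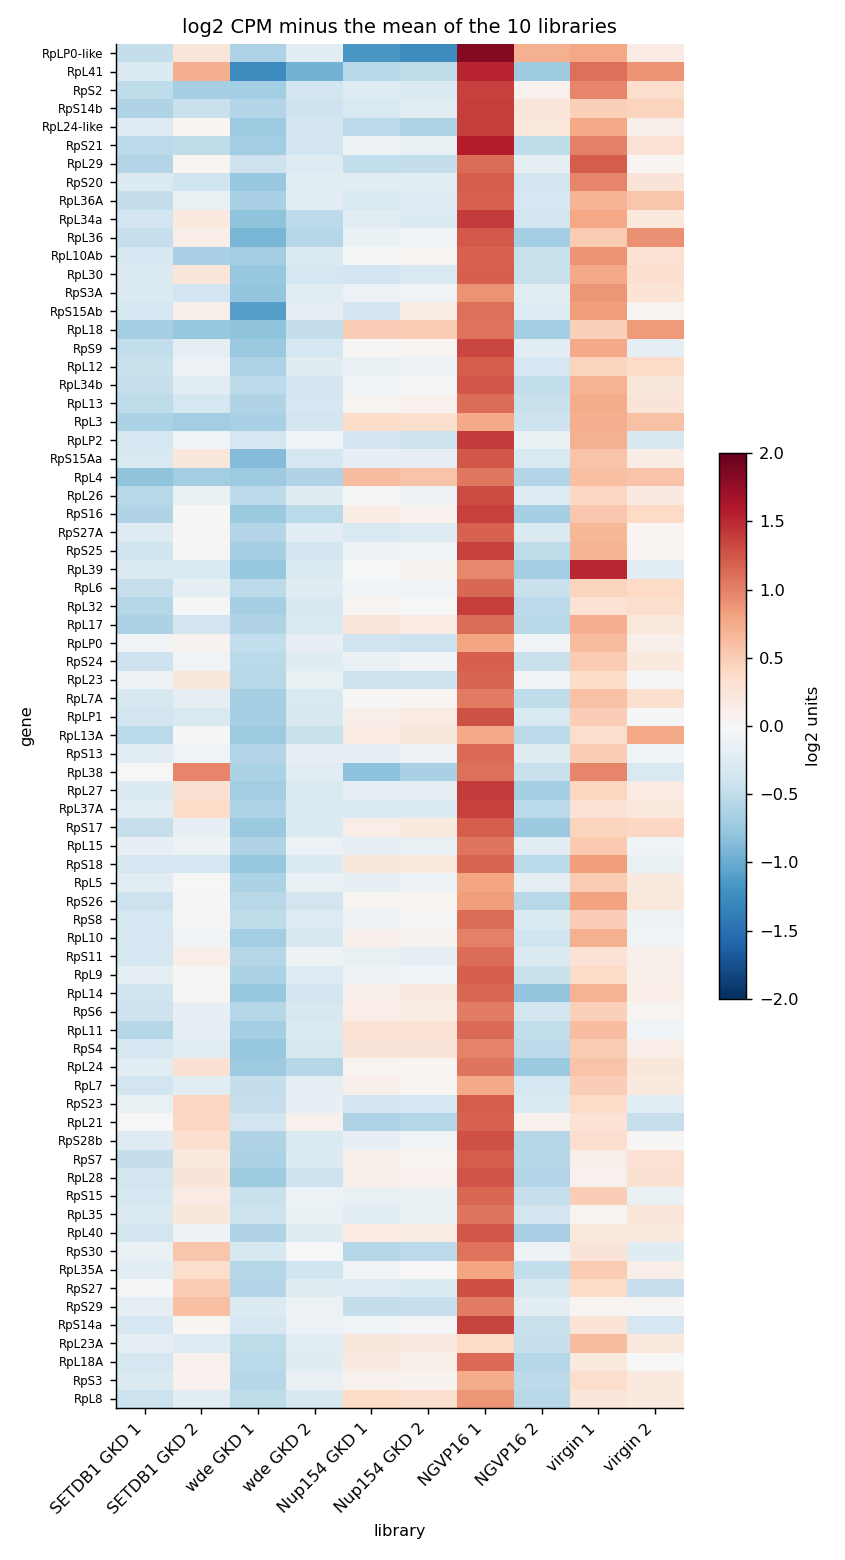
Level of each of the 74 tested ribosomal protein genes in each library, as log2 CPM minus the gene's mean over the 10 libraries, ordered by the mean of the control libraries. Red is above and blue below the gene's own mean, and the NGVP16 1 column is the highest for 71 genes and the wde GKD 1 column the lowest for 53.

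The gap between the NGVP16 libraries followed exon length over genes outside the set (Spearman correlation -0.79) and more weakly within the set (-0.26). The ratio of NGVP16 control 1 to control 2 was above 1 for all 74 genes, with a median of 2.93, and ran from 1.80 for RpLP0 to 4.68 for RpL41. Ribosomal protein genes are short, with a median exon length of 888 bases over the 78. Genes outside the set, 6910 in all, were put into 5 bins of exon length, and the log2 ratio of these libraries had a median of 0.95 in the bin of the shortest genes and -1.19 in that of the longest, against 1.55 for the ribosomal protein genes. The virgin pair had the same trend at a smaller size, from 0.36 to -0.40, and the ribosomal protein genes were at 0.42. In Nup154 GKD the replicates differed by -0.02 in the median. Replicate 1 was lower in SETDB1 GKD and wde GKD, by -0.34 and -0.33, where the bin of the shortest genes outside the set was at -0.14 and -0.08. Results are therefore given against each control library as well as against the pairs.

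Among the members, the highest level per kilobase of exon was that of RpL41, the smallest protein of the ribosome, at 9224 CPM per kilobase averaged over the 10 libraries. RpS27A, which is made as a fusion with ubiquitin, and RpL23 followed, the latter at 4310 CPM per kilobase. At the other end of the tested genes stood RpS15Ab, RpLP0-like and RpL24-like. RpS15Ab, a second gene for RpS15A, was the lowest tested gene in every library, at 15.7 to 37.2 in the 6 knockdown libraries and 27.9 to 71.8 in the 4 control libraries. Its partner RpS15Aa was at 843 to 1800.5 in the 6 knockdown libraries and 1247 to 3659.6 in the 4 control libraries.

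RpL10Aa, RpL7-like, RpS28-like and RpS28a were at or near 0 and were not tested. RpL10Aa had 0 counts in every library, which allows at most 0.149 to 0.408 CPM before TMM according to library depth. RpL7-like had 1 count in SETDB1 GKD 1 and 1 in NGVP16 control 2. RpS28-like had 2 counts in NGVP16 control 2 and none elsewhere. RpS28a had 1 count in SETDB1 GKD 2, 1 in each wde GKD library and 3 in Nup154 GKD 2, and none in the controls. The partners of 2 of them were well expressed, with RpL10Ab at 813 to 1362 in the 6 knockdown libraries and 971 to 2993 in the 4 control libraries, and RpS28b at 977 to 1849 in the 6 knockdown libraries and 1003 to 3573 in the 4 control libraries.

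Against the NGVP16 pair, most ribosomal protein genes were lower in the knockdowns, but few passed the test. In SETDB1 GKD, 3 of 74 fell and 0 rose, with a median log2 fold change of -0.71 and 73 of 74 below 0. Of all 10105 genes tested, 9.51% fell and 14.6% rose in that comparison, with a median of 0.11. In wde GKD, 5 of 74 fell and 0 rose, with a median of -1.01 and 74 of 74 below 0, against 14.2% of all genes that fell, 21.3% that rose and a median of 0.15. In Nup154 GKD, 4 of 74 fell and 0 rose, with a median of -0.68 and 69 of 74 below 0, against 16.1%, 20.8% and a median of 0.12. At an unadjusted p under 0.05 there were 9, 18 and 10 of 74 in the 3 comparisons, all lower, where 16.3%, 20.3% and 21.1% of all genes were lower. DESeq2 called 8, 20 and 14 lower, where it called 13.8%, 18.1% and 21.0% of all genes lower. The share of ribosomal protein genes called lower by edgeR was in each comparison under that of all genes, and in wde GKD the unadjusted and the DESeq2 share were above it. Among the genes called by edgeR was RpLP0-like in all 3 knockdowns and RpL24-like in wde and Nup154 GKD. The yeast homologs of both are assembly factors. The 3 comparisons share their control libraries.

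These counts rested on which control library was used. Against NGVP16 control 1 alone, 66, 72 and 62 of the 74 genes were called lower in SETDB1, wde and Nup154 GKD, with medians of -1.29, -1.60 and -1.25, where 17.0%, 19.7% and 20.3% of all genes were called lower. Against NGVP16 control 2 alone, 1, 2 and 3 genes were called lower, with medians of 0.14, -0.15 and 0.22, where the background was 11.0%, 16.8% and 18.6%. Then 3 genes were called higher in Nup154 GKD, where 16.3% of all genes were: RpL4 at 1.03 ± 0.22, RpL18 at 1.04 ± 0.24 and RpL8 at 0.77 ± 0.23 (log2 fold change ± SE). Leaving out a knockdown library instead left 0 calls in SETDB1 GKD for either library, where 2.43% and 3.56% of all genes were called lower. It left 0 without wde GKD 1 and 1 without wde GKD 2, where 3.29% and 7.06% were, and 1 without either Nup154 GKD library, where 5.25% and 5.16% were. The sign of the median turned with the control library in SETDB1 GKD and Nup154 GKD. Over all genes the medians were 0.38, 0.47 and 0.34 against NGVP16 control 1 alone, and 0.13, 0.10 and 0.02 against NGVP16 control 2 alone. The 0.14 in SETDB1 GKD against NGVP16 control 2 alone was thus close to the median of all genes.

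Against virgin control 1 alone, 0, 1 and 2 genes were called lower, where 7.42%, 11.7% and 12.3% of all genes were. These were RpL39 in wde GKD and RpL29 and RpLP0-like in Nup154 GKD. The medians were -0.81, -1.08 and -0.74, against 0.15, 0.10 and 0.04 over all genes. Against virgin control 2 alone, 0 genes were called in any knockdown, where 5.24%, 7.51% and 7.12% of all genes were called lower, and the medians were -0.25, -0.61 and -0.29. Over all genes the medians against virgin control 2 alone were 0.28, 0.21 and 0.10. In each of these fits the single control library was taken to vary like the other sets.

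**Figure D3:**
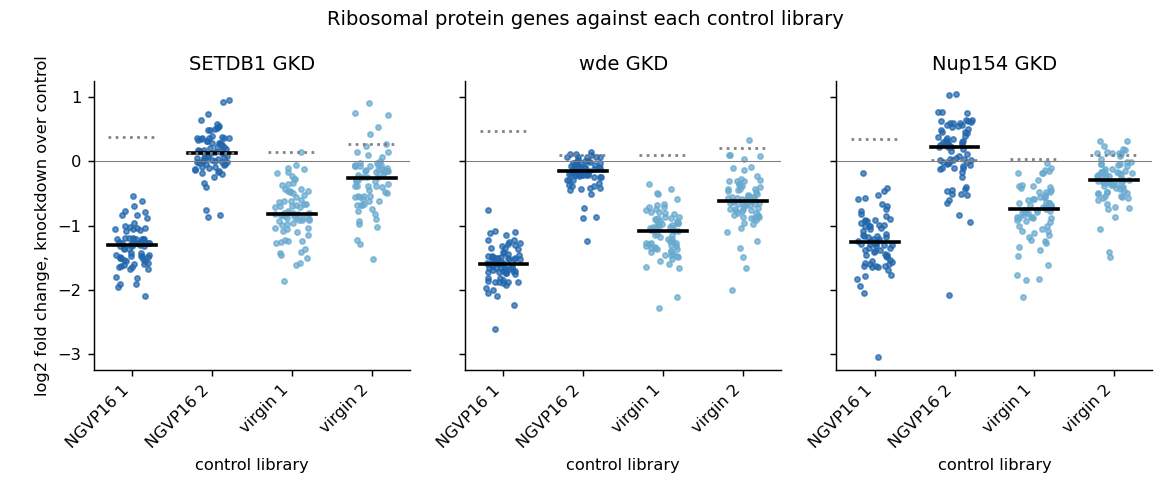
Log2 fold change of each of the 74 tested ribosomal protein genes in the 3 knockdowns against each control library taken alone (points), with the median of these genes (black line) and of all genes tested (dotted grey line). The medians lie at -1.25 to -1.60 against NGVP16 1, at -0.15 to 0.22 against NGVP16 2, and between -0.25 and -1.08 against the virgin libraries.

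Against the virgin pair, which shares no library with the comparison above except the knockdowns, 2 of 74 genes fell in SETDB1 GKD, 3 in the wde knockdown and 1 in the Nup154 knockdown, and 0 rose. Of all genes, 13.2%, 17.0% and 16.2% fell there, and 21.8%, 26.4% and 24.4% rose. The medians of the ribosomal protein genes were -0.58, -0.82 and -0.43, against 0.09, 0.07 and 0.08 over all genes. RpL3, which sits near the catalytic centre of the large subunit, was called lower in SETDB1 GKD at -1.33 ± 0.39 (edgeR adjusted p = 0.0271) and in wde GKD at -1.16 ± 0.38 (edgeR adjusted p = 0.0375). RpL3 CPM was 1330.0 and 1274 in SETDB1 GKD, 1322 and 1608 in the wde knockdown, 2665 and 2571 in Nup154 GKD, against 3491 and 1561 in the NGVP16 pair and 3442 and 3113 in the virgin pair. Both SETDB1 GKD libraries were below all 4 controls, wde GKD 2 overlapped NGVP16 control 2, and Nup154 GKD lay between the NGVP16 libraries.

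Between the 2 control pairs, 0 of 74 genes were called in edgeR, where 1.29% of all genes were called lower and 0.356% higher in the virgin pair. None had an unadjusted p under 0.05, where 18.2% of all genes did, and the median log2 fold change, virgin over NGVP16, was -0.21. DESeq2 also called 0, and 9.11% of all genes. With NGVP16 control 1 alone 26 members were called lower in the virgin pair, where 9.34% of all genes were, and with NGVP16 control 2 alone 2 were called higher, where 0.588% were. The absence of calls against the pair came with NGVP16 libraries that differed 2.93-fold in the median gene.

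A stricter reading asks which genes were lower in each knockdown library than in each control. RpL24-like, RpS14b and RpS2 were below all 4 controls in all 6 knockdown libraries, 3 of 74, where 13.9% of all genes were. No gene of the set was above all 4 controls in all 6, where 19.9% of all genes were. With NGVP16 control 1 left out, the same 3 genes and no others were below, where 19.9% of all genes were. With NGVP16 control 2 left out, 35 of 74 were below, where 17.8% of all genes were.

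RpLP0-like (chromosome 2R, 10098518 to 10099590, minus strand) showed the largest fall. It codes for a relative of the stalk base protein RpLP0 whose yeast homolog, Mrt4, acts in assembly of the large subunit and is not part of the mature ribosome. RpLP0-like CPM was 75.5 and 124 in SETDB1 GKD, 68.8 and 90.4 in the wde knockdown, 47.0 and 44.0 in Nup154 GKD, against 374 and 172 in the NGVP16 pair and 179 and 117 in the virgin pair. Both Nup154 GKD libraries were the lowest of the 10, and the only overlap with the controls was SETDB1 GKD 2, which stood above virgin control 2. Against the NGVP16 pair the log2 fold change was -1.45 ± 0.42 in SETDB1 GKD (edgeR adjusted p = 0.0365), -1.78 ± 0.43 in wde GKD (edgeR adjusted p = 0.0131) and -2.58 ± 0.44 in the Nup154 knockdown (edgeR adjusted p = 0.00266). The fall in Nup154 GKD passed the test under every alternative run, including against the virgin pair (-1.70) and when libraries were scaled to the ribosomal protein genes themselves (-2.07). In SETDB1 GKD it came to -0.86 without NGVP16 control 1 and to -0.57 against the virgin pair, neither of which passed. In wde GKD it came to -0.90 against the virgin pair and to -1.59 without wde GKD 1, again without passing. Its exons overlap those of Jra on the other strand, and how strand was used in the counting is not given in the sources used here.

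RpL24-like (chromosome 3R, 11430740 to 11431582, minus strand) is likewise named for its likeness to a ribosomal protein. Its yeast homolog, Rlp24, is an assembly factor that holds the place of RpL24 on the maturing large subunit. RpL24-like CPM was 163 and 199 in SETDB1 GKD, 117 and 149.7 in the wde knockdown, 135 and 126 in Nup154 GKD, against 503 and 225 in the NGVP16 pair and 330.1 and 207 in the virgin pair. All 6 knockdown libraries were below all 4 controls, though SETDB1 GKD 2 came close to virgin control 2. The log2 fold change against the NGVP16 pair was -1.45 ± 0.40 in wde GKD (edgeR adjusted p = 0.0237) and -1.48 ± 0.40 in the Nup154 knockdown (edgeR adjusted p = 0.0205). Without NGVP16 control 1 it was -0.88 in wde GKD, which did not pass, and -0.94 in Nup154 GKD, which did. Neither call held against the virgin pair, at -1.01 and -1.04 (edgeR adjusted p = 0.069 and 0.0652). Its exons overlap those of Dtd on the other strand. RpL24 itself, the mature protein's gene, was at 654 to 1336 in the 6 knockdown libraries and 646 to 2261 in the 4 control libraries, with no gap between the groups.

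RpS14b and RpS14a are neighbouring, near-identical genes on chromosome X for a protein of the platform of the small subunit, and reads they share could have been split between them or dropped. RpS14b (7934898 to 7935792, plus strand) CPM was 191 and 213 in SETDB1 GKD, 193 and 216 in the wde knockdown, 235 and 251 in Nup154 GKD, against 754 and 343 in the NGVP16 pair and 403 and 395 in the virgin pair. All 6 knockdown libraries were below all 4 controls. The log2 fold change against the NGVP16 pair was -1.44 ± 0.36 in SETDB1 GKD, -1.42 ± 0.36 in the wde knockdown and -1.17 ± 0.35 in the Nup154 knockdown, with edgeR adjusted p = 0.0201, 0.0156 and 0.0297. Against NGVP16 control 2 alone it was still called, at -0.84, -0.87 and -0.65. With the virgin pair as control it was -0.98, -0.96 and -0.71 and did not pass. RpS14a (7933742 to 7934677, plus strand) CPM was 545 and 701 in SETDB1 GKD, 544 and 628 in the wde knockdown, 650.0 and 674 in Nup154 GKD, against 1738 and 504 in the NGVP16 pair and 826 and 543 in the virgin pair. Its knockdown libraries lay between the NGVP16 libraries, so the neighbours were not alike in these data, and the difference between them was not tested.

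RpS2 (chromosome 2L, 9896265 to 9897552, minus strand) lies at the mRNA entry side of the small subunit, and its gene was first known in flies as string of pearls, from mutants with arrested egg chambers. RpS2 CPM was 1257 and 1129 in SETDB1 GKD, 1120.4 and 1396 in the wde knockdown, 1503 and 1475 in Nup154 GKD, against 4608 and 1903 in the NGVP16 pair and 3534 and 2286 in the virgin pair. All 6 knockdown libraries were below all 4 controls. The log2 fold change against the NGVP16 pair was -1.45 ± 0.43 in SETDB1 GKD (edgeR adjusted p = 0.0407), -1.37 ± 0.43 in wde GKD (edgeR adjusted p = 0.0375) and -1.13 ± 0.43 in the Nup154 knockdown (edgeR adjusted p = 0.0688). With the virgin pair as control it was -1.29 in SETDB1 GKD and -1.21 in wde GKD, both called, and -0.97 in Nup154 GKD, which was not. Without NGVP16 control 1 it was -0.75 and -0.72 in SETDB1 GKD and wde GKD, and neither passed.

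RpL41 and RpL21 were called in 1 knockdown each. RpL41 (chromosome 2R, 24903416 to 24903935, minus strand) CPM was 1984 and 3979 in SETDB1 GKD, 1009 and 1249.5 in the wde knockdown, 1628 and 1681 in Nup154 GKD, against 6874 and 1469 in the NGVP16 pair and 5146 and 4498 in the virgin pair. Both wde GKD libraries were below every other library, and NGVP16 control 2 was below SETDB1 GKD and Nup154 GKD. The log2 fold change in wde GKD was -1.89 ± 0.64 against the NGVP16 pair (edgeR adjusted p = 0.0485), -2.09 ± 0.65 with the virgin pair as control (edgeR adjusted p = 0.0291) and -0.50 without NGVP16 control 1, where it was not called. RpL21 (chromosome 2L, 22247111 to 22247875, minus strand) CPM was 2447 and 3283 in SETDB1 GKD, 1884 and 2634 in the wde knockdown, 1612 and 1668 in Nup154 GKD, against 5594 and 2611 in the NGVP16 pair and 3005 and 1786 in the virgin pair. The Nup154 GKD libraries were the lowest of the 10, and the other knockdowns overlapped the controls. Its log2 fold change in Nup154 GKD was -1.32 ± 0.44 against the NGVP16 pair (edgeR adjusted p = 0.0429), and it was not called without NGVP16 control 1 (-0.83) or against the virgin pair (-0.55).

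**Figure D4:**
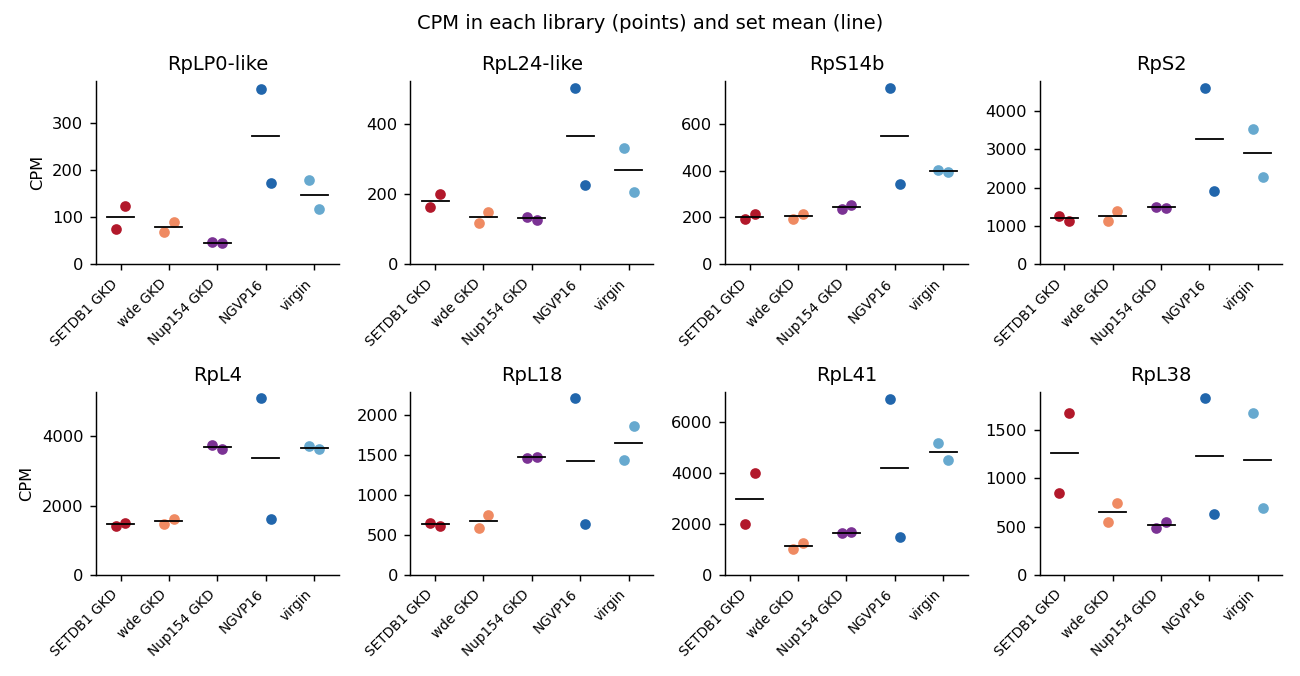
CPM of 8 ribosomal protein genes in each library (points) with the mean of each set (line), on linear axes from 0. RpL24-like, RpS14b and RpS2 have all 6 knockdown libraries below all 4 controls, RpLP0-like is lowest in Nup154 GKD, and RpL4 and RpL18 are higher in Nup154 GKD than in SETDB1 GKD and wde GKD.

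The stalk, where elongation factors dock, was not called in any knockdown against the NGVP16 pair. RpLP0, which forms its base, was at 2143 to 3147 in the 6 knockdown libraries and 2898 to 5213 in the 4 control libraries, and its log2 fold changes were -0.43, -0.74 and -0.85 in SETDB1, wde and Nup154 GKD. Both Nup154 GKD and wde GKD were below all 4 controls for RpLP0, while SETDB1 GKD overlapped them. RpLP1 was at 1180.4 to 2095 in the 6 knockdown libraries and 1511 to 4511 in the 4 control libraries, with log2 fold changes of -1.03, -1.17 and -0.55. RpLP2 was at 1276 to 1618 in the 6 knockdown libraries and 1374 to 4495 in the 4 control libraries, with -1.03, -1.03 and -1.22. RpL40 and RpS27A, the ubiquitin fusion genes, were not called either. RpL40 was at 832 to 1422 in the 6 knockdown libraries and 807 to 2989 in the 4 control libraries, with -0.81, -0.996 and -0.43. RpS27A was at 1739 to 2635 in the 6 knockdown libraries and 2151 to 5912 in the 4 control libraries, with -0.74, -1.02 and -0.92.

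Pairs of genes for 1 protein kept their order. RpL34b was above RpL34a in every library, with RpL34b at 528 to 742 in the 6 knockdown libraries and 540.4 to 1784 in the 4 control libraries and RpL34a at 149 to 295 in the 6 knockdown libraries and 202 to 680.4 in the 4 control libraries. RpS15Aa was likewise above RpS15Ab in every library. None of these 4 genes was called against the NGVP16 pair.

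Set against the summed counts of the ribosomal protein genes, 1 single gene passed the test, in 1 knockdown. For this, libraries were scaled so that ribosomal protein genes as a group were level, which put the median over all genes at a log2 fold change of 0.45 in SETDB1 GKD, 0.76 in the wde knockdown and 0.33 in the Nup154 knockdown. Under this scaling 0 members were called against the NGVP16 pair in SETDB1 GKD and wde GKD, where 7.46% and 17.8% of all genes were called in either direction, and 1 in Nup154 GKD, RpLP0-like, where 14.4% were. RpLP0-like is a member by its name, and its yeast homolog is not part of the mature ribosome. At an unadjusted p under 0.05 there were 0, 0 and 3 members, where 24.3%, 33.2% and 30.5% of all genes were. The departures that follow are given as values, and whether they differ between knockdowns was not tested. The largest positive departures were RpL38 at 0.71, RpL35A at 0.45 and RpL24 at 0.40 in SETDB1 GKD, RpL23A at 0.44, RpS3 at 0.34 and RpL7 at 0.26 in wde GKD and RpL4 at 0.77, RpL18 at 0.71 and RpL23A at 0.62 in the Nup154 knockdown. The largest negative departures were RpLP0-like, RpS14b and RpS2 in SETDB1 GKD, RpLP0-like, RpL41 and RpL24-like in wde GKD and in the Nup154 knockdown RpLP0-like, RpL24-like and RpL21.

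The knockdowns were also compared with one another, which uses no control library. No ribosomal protein gene was called between any 2 knockdowns in edgeR. Of all genes, 0.129% were called lower and 0.158% higher in SETDB1 GKD against wde GKD, 2.34% and 1.35% in SETDB1 GKD against Nup154 GKD, and 0.544% and 0.871% in wde GKD against Nup154 GKD. At an unadjusted p under 0.05 there were 0, 4 and 2 members, where 13.8%, 22.2% and 18.1% of all genes were. DESeq2 called 0, 1 and 0 members, where it called 6.01%, 12.6% and 9.31% of all genes that it gave an adjusted p. The median log2 fold change of the members was 0.23 for SETDB1 over wde GKD, -0.12 for SETDB1 over Nup154 GKD and -0.40 for wde over Nup154 GKD. The first turned to -0.05 under ribosomal protein scaling.

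The order of the knockdown libraries differed from gene to gene. Both wde GKD libraries were below both Nup154 GKD libraries for 50 of 74 genes, where 34.7% of all genes were, and above for 7, where 31.6% were. Both SETDB1 GKD libraries were below both Nup154 GKD libraries for 34 genes (all genes 36.9%) and above for 15 (all genes 32.7%). SETDB1 GKD was above wde GKD for 18 genes (all genes 26.4%) and below for 0 (all genes 29.3%). Nup154 GKD stood above both other knockdowns for 33 genes, where 24.8% of all genes did, and below for 6, where 18.9% did. The 6 were RpL21, RpLP0-like, RpS30, RpLP2, RpL38 and RpS29. wde GKD stood below both others for 10 genes (all genes 12.1%) and SETDB1 GKD above both others for 9 (all genes 15.8%).

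RpL4 and RpL18, both core proteins of the large subunit, had the widest gap in favour of Nup154 GKD. They were singled out after their values were seen. RpL4 (chromosome 3R, 27922821 to 27924888, plus strand) CPM was 1403 and 1506 in SETDB1 GKD, 1474 and 1619 in the wde knockdown, 3752 and 3644 in Nup154 GKD, against 5107 and 1627 in the NGVP16 pair and 3727 and 3633 in the virgin pair. The SETDB1 and wde libraries and NGVP16 control 2 lay together, and the Nup154 libraries lay with the virgin pair. RpL4 took 3.52% and 3.40% of all ribosomal protein counts in Nup154 GKD, 1.60% and 1.34% in SETDB1 GKD, and 2.04% and 1.77% in wde GKD. The log2 fold change was -1.35 ± 0.47 for SETDB1 over Nup154 GKD (edgeR adjusted p = 0.14) and -1.26 ± 0.47 for wde over Nup154 GKD (edgeR adjusted p = 0.21).

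RpL18 (chromosome 3L, 7240203 to 7241351, minus strand) CPM was 656 and 615 in SETDB1 GKD, 593 and 746 in the wde knockdown, 1461 and 1484 in Nup154 GKD, against 2217 and 640.4 in the NGVP16 pair and 1442 and 1866 in the virgin pair. The same libraries were high and low as for RpL4. The log2 fold change was -1.21 ± 0.50 for SETDB1 over Nup154 GKD (edgeR adjusted p = 0.2) and -1.14 ± 0.50 for wde over Nup154 GKD (edgeR adjusted p = 0.275). With the trend of fold change on gene length removed, RpL18 was called in both (-1.47 and -1.40) and RpL4 in the first (-1.32), where 6.01% and 2.97% of all genes were called lower. RpL18 shares exon sequence with BHD and RpL4 with a long noncoding RNA, in each case on the other strand.

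RpL38 and RpLP0-like went the other way. RpL38 (chromosome 2R, 4515388 to 4516458, minus strand), a protein of the large subunit, had CPM of 849 and 1680.2 in SETDB1 GKD, 551 and 741 in the wde knockdown, 483 and 545 in Nup154 GKD, against 1829.7 and 630.0 in the NGVP16 pair and 1679 and 691 in the virgin pair. SETDB1 GKD 2 and both replicates 1 of the controls were high, and both Nup154 GKD libraries were the lowest of the 10. Its log2 fold change, SETDB1 over Nup154 GKD, was 1.30 (edgeR adjusted p = 0.238). That of RpLP0-like was 1.13 (edgeR adjusted p = 0.159), and with the length trend removed it was called at 0.95, where 5.82% of all genes were called higher.

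Removing the length trend from the fold changes left the sign of the members' median in the 6 comparisons with controls but moved the counts. Against the NGVP16 pair 7, 28 and 6 members were then called lower in SETDB1, wde and Nup154 GKD, where 20.9%, 27.5% and 26.7% of all genes were, with medians of -0.46, -0.76 and -0.19. Against the virgin pair 48, 68 and 21 were called lower, where 30.8%, 36.3% and 33.6% of all genes were, with medians of -0.90, -1.17 and -0.57. The median was lowest in wde GKD under either control pair, and the comparison of wde with Nup154 GKD itself had a median of -0.60 with 1 gene called lower under this setting, where 2.97% of all genes were. In the comparison of the control pairs the removal turned the median from -0.21 to 0.38 and called 1 gene, RpL36A, higher in the virgin pair, where 4.02% of all genes were. RpL36A CPM was 749.8 and 938 in SETDB1 GKD, 669 and 889 in the wde knockdown, 846 and 876 in Nup154 GKD, against 2355 and 827 in the NGVP16 pair and 1672 and 1528 in the virgin pair.

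Genes that act with the ribosomal proteins were read from lists chosen by function, with earlier results of these data known. Ribosome assembly factors fell in every knockdown. Of 29 such genes, 28 were tested, and against the NGVP16 pair 24 fell in SETDB1 GKD, 25 in the wde knockdown and 25 in the Nup154 knockdown, while 0 rose. Their medians were -1.41, -1.67 and -1.73, against 0.11, 0.15 and 0.12 over all genes, of which 9.51%, 14.2% and 16.1% fell. For 25 of the 28, all 6 knockdown libraries were below all 4 controls, where 13.9% of all genes were. Against NGVP16 control 1 alone their medians were -1.57, -1.84 and -1.92, where all genes had 0.38, 0.47 and 0.34. Against NGVP16 control 2 alone they were -1.26, -1.67 and -1.65, where all genes had 0.13, 0.10 and 0.02. Against the virgin pair 16, 25 and 24 fell, where 13.2%, 17.0% and 16.2% of all genes did. There the result depended on the library, with fewer genes called against virgin control 2 alone than against virgin control 1 alone. The medians were -1.35, -1.67 and -1.82 against virgin control 1 alone (all genes 0.15, 0.10 and 0.04). They were -0.70, -0.96 and -1.25 against virgin control 2 alone (all genes 0.28, 0.21 and 0.10). With only 1 knockdown library the counts dropped: to 2 without SETDB1 GKD 1 and 14 without SETDB1 GKD 2, to 11 without wde GKD 1, and to 15 and 13 without Nup154 GKD 1 and 2. Scaled to the ribosomal protein genes, 0, 2 and 7 fell, where 7.46%, 17.8% and 14.4% of all genes were called in either direction. The summed share of germline markers was lower, though not that of Rbp9, in the same 6 libraries (0.0384% to 0.0772% against 0.237% to 0.442%) and that of the muscle sheath higher (1.94% to 2.49% against 0.217% to 0.355%), and their part in these changes, and in those of the groups that follow, was not tested.

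The assembly factors with the largest changes were Fib, NHP2, mbm and Surf6. Fib, the methyltransferase fibrillarin of box C/D snoRNPs, had CPM of 92.4 and 131 in SETDB1 GKD, 85.7 and 103 in the wde knockdown, 169 and 167 in Nup154 GKD, against 792 and 321 in the NGVP16 pair and 428 and 305 in the virgin pair. Its log2 fold changes were -2.32 ± 0.43, -2.56 ± 0.44 and -1.73 ± 0.42 in SETDB1, wde and Nup154 GKD (edgeR adjusted p = 0.00638, 0.00322 and 0.0133). Surf6, a nucleolar protein, had CPM of 79.0 and 120.5 in SETDB1 GKD, 57.7 and 85.2 in the wde knockdown, 37.7 and 45.2 in Nup154 GKD, against 372 and 251 in the NGVP16 pair and 217 and 137 in the virgin pair, and log2 fold changes of -1.64, -2.12 and -2.91. NHP2, of box H/ACA snoRNPs, was at 59.8 to 103 in the 6 knockdown libraries and 160.5 to 521 in the 4 control libraries, with -1.99, -2.28 and -2.48. mbm, a nucleolar protein first known from the fly brain, was at 38.5 to 64.6 in the 6 knockdown libraries and 173 to 238 in the 4 control libraries, with -2.06, -2.21 and -2.50. For all 4 the knockdown and control libraries did not overlap. Surf6 and NHP2 in SETDB1 GKD (-0.83 and -1.23) and Fib in Nup154 GKD (-1.12) were no longer called against the virgin pair.

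All 8 genes tested from the list for RNA polymerase I, which transcribes ribosomal RNA, fell in all 3 knockdowns against the NGVP16 pair. The list holds Polr1 genes and Tif-IA, and its medians were -1.64, -1.69 and -2.05. Of all genes, 9.51%, 14.2% and 16.1% fell in these comparisons. All 8 genes of this list had the 6 knockdown libraries below the 4 controls, where 13.9% of all genes did. Their medians were -1.52, -1.73 and -2.23 against virgin control 1 alone (all genes 0.15, 0.10 and 0.04). Against virgin control 2 alone they were -1.01, -1.15 and -1.41 (all genes 0.28, 0.21 and 0.10), with fewer genes called. Against the virgin pair 5, 7 and 8 of them fell, where 13.2%, 17.0% and 16.2% of all genes did. The count was 1 without SETDB1 GKD 1, 3 without SETDB1 GKD 2, 0 without wde GKD 1, and 5 without either Nup154 GKD library. Scaled to the ribosomal protein genes it was 0, 1 and 4. Polr1F had CPM of 15.6 and 29.3 in SETDB1 GKD, 18.8 and 30.1 in the wde knockdown, 12.9 and 12.3 in Nup154 GKD, against 114 and 79.8 in the NGVP16 pair and 77.2 and 52.7 in the virgin pair, with log2 fold changes of -2.11 ± 0.39, -1.99 ± 0.39 and -2.94 ± 0.41 (edgeR adjusted p = 0.00614, 0.00571 and 0.00101). Polr1H had -2.40, -2.65 and -2.44, Polr1D -1.68, -1.98 and -2.71, and Polr1C -1.89, -1.81 and -2.07. Polr1C was no longer called in SETDB1 GKD (-1.18) and wde GKD (-1.11) against the virgin pair, nor was Polr1D in SETDB1 GKD (-1.11).

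**Figure D5:**
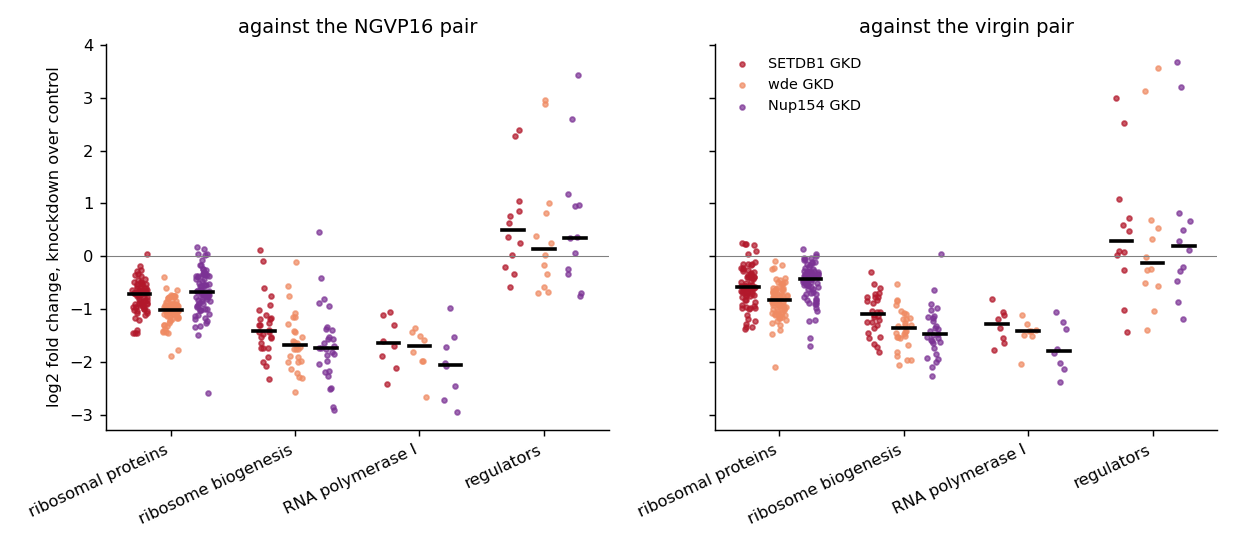
Log2 fold change of each tested gene in 4 groups (74 ribosomal protein genes, 28 ribosome biogenesis genes, 8 RNA polymerase I genes and 12 regulators) in the 3 knockdowns, against the NGVP16 pair (left) and the virgin pair (right), with the group's median (black line). The medians of assembly and polymerase genes lie at -1.41 to -2.05 on the left, and those of the ribosomal protein genes at -0.68 to -1.01.

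Translation elongation factors and their partners were mixed. Of 9 genes, 7 were tested. Against the NGVP16 pair 1 rose and 2 fell in SETDB1 GKD and in wde GKD, and 0 rose and 2 fell in the Nup154 knockdown. The shares of all genes there were 14.6%, 21.3% and 20.8% that rose and 9.51%, 14.2% and 16.1% that fell. eEF1delta, a subunit of the exchange factor complex, had CPM of 404 and 614 in SETDB1 GKD, 417 and 519.7 in the wde knockdown, 184 and 205 in Nup154 GKD, against 1985 and 1033 in the NGVP16 pair and 691 and 445 in the virgin pair. Its log2 fold change was -1.57, -1.69 and -2.96 against the NGVP16 pair, all called. Against the virgin pair it was -0.16 and -0.28 in SETDB1 and wde GKD, which were not called (edgeR adjusted p = 0.771 and 0.581), and -1.55 in Nup154 GKD, which was. eEF1beta fell in SETDB1 GKD (-1.45) but was not called against the virgin pair (-1.19), and Tctp, a growth protein whose mRNA is regulated like those of ribosomal proteins, fell in wde GKD (-1.12) and Nup154 GKD (-1.05). eEF1alpha2 rose in SETDB1 GKD (1.89) and wde GKD (1.76), with CPM of 49.1 and 26.3 in SETDB1 GKD, 31.9 and 37.3 in the wde knockdown, 13.6 and 16.4 in Nup154 GKD, against 11.1 and 9.34 in the NGVP16 pair and 1.25 and 1.71 in the virgin pair. It was called higher in all 3 knockdowns against the virgin pair, at 4.70, 4.58 and 3.37. With NGVP16 control 1 alone the median of the 7 genes was -1.20, -1.19 and -0.68, where all genes had 0.38, 0.47 and 0.34. With NGVP16 control 2 alone it was -0.47, -0.43 and -0.19, where all genes had 0.13, 0.10 and 0.02. sta and Rack1, ribosomal proteins whose names lie outside the symbol form, were not called, and their median log2 fold changes were -0.70, -1.01 and -0.47.

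Among genes that regulate ribosomal protein expression or respond to it, 12 of 15 were tested. In each knockdown 3 rose and 0 fell against the NGVP16 pair, where 14.6%, 21.3% and 20.8% of all genes rose. The share of all genes that fell was 9.51%, 14.2% and 16.1%. For 4 of the 12, all 6 knockdown libraries were above all 4 controls, where 19.9% of all genes were. The median log2 fold change of this list depended on the control library. Against NGVP16 control 1 alone it was 1.37, 1.09 and 1.22 in SETDB1, wde and Nup154 GKD, where all genes had 0.38, 0.47 and 0.34. Against NGVP16 control 2 alone it was 0.0013, -0.39 and -0.29, where all genes had 0.13, 0.10 and 0.02. With virgin control 1 alone it was 0.06, -0.25 and 0.16 (all genes 0.15, 0.10 and 0.04). With virgin control 2 alone it was 0.38, -0.05 and 0.04 (all genes 0.28, 0.21 and 0.10). Xrp1, a transcription factor that is induced in flies with ribosomal protein mutations, had CPM of 718 and 588 in SETDB1 GKD, 1164 and 766 in the wde knockdown, 753 and 751 in Nup154 GKD, against 83.0 and 167 in the NGVP16 pair and 64.8 and 99.6 in the virgin pair. All 6 knockdown libraries were above all 4 controls, and the log2 fold change against the NGVP16 pair was 2.39 ± 0.41, 2.95 ± 0.42 and 2.59 ± 0.42 (edgeR adjusted p = 0.00461, 0.00152 and 0.00208). Thor, the translation repressor 4E-BP that TOR inhibits, had CPM of 209 and 182 in SETDB1 GKD, 316 and 279 in the wde knockdown, 458 and 415 in Nup154 GKD, against 57.7 and 23.2 in the NGVP16 pair and 30.7 and 37.4 in the virgin pair. It too had no overlap, with 2.28 ± 0.40, 2.88 ± 0.41 and 3.44 ± 0.42 (edgeR adjusted p = 0.00508, 0.00152 and 0.000606). crc, the fly ATF4, was at 998 to 1184 in the 6 knockdown libraries and 507 to 833 in the 4 control libraries and rose by 1.05, 1.00 and 0.97, but was not called against the virgin pair (0.59, 0.54 and 0.51). Irbp18, the dimer partner of Xrp1, named after its values were seen, was above all controls in all 6 knockdown libraries, at 15.6 to 19.9 in the 6 knockdown libraries and 6.54 to 14.6 in the 4 control libraries, but was not called against the NGVP16 pair. Against the virgin pair Thor and Xrp1 were called higher in all 3 knockdowns, and Tsc1, an inhibitor of TOR likewise named after its values were seen, was called lower in Nup154 GKD.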

How the data were processed

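Poly(A) mRNA of ovaries was measured in 10 libraries in 5 sets of n = 2, and the adult control pair was left out. Each deposited file gives the whole-number count of every FlyBase identifier in 1 library, and the values carry no sign of normalization by the authors. The build dm6 and the programs DESeq2 1.24.0, HISAT2 2.1.0 and featureCounts 1.4.6 are listed, per the submitters' processing notes. The sources used here do not give the annotation release or the strand setting. Per the labels' protocols the library kit was directional.

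Symbols and positions came from Ensembl release 115 (BDGP6, the coordinates of dm6), which named 16647 of 17023 identifiers. Members and gene lists were chosen with earlier results of these data known. Genes were filtered with filterByExpr, scaled by TMM and tested in R 4.3.3 with edgeR 4.0.16 (quasi-likelihood), 1 mean per set, 5 residual degrees of freedom, common biological coefficient of variation 0.387, with Benjamini-Hochberg adjustment over 10105 genes and a threshold of 0.05. SE is the absolute log2 fold change over the square root of F. Shares were compared by exact permutation tests over libraries, which ignored the sets. Library depth sets the precision of low counts only, and intervals cover counting error. Alternatives were DESeq2 1.42.0, other scalings, no filter, a lowess trend on exon length removed, the other control pair, a replicate block and leaving out each library. The procedure was tested on simulated counts with known changes.

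Named genes were members called in any of 7 comparisons (each knockdown against the NGVP16 pair, the knockdowns with one another, and the control pairs with each other), the 3 largest departures each way under ribosomal protein scaling, duplicated and -like genes, stalk proteins, ubiquitin fusions and the extremes per kilobase, plus up to 4 genes of each list. RpL3, RpL8, RpL29, RpL36A, RpL39, RpS29 and RpS30 were called, if at all, only against the virgin pair, against single control libraries or in other alternatives, so they lie outside this rule and were named after their values were seen. No pair of replicates agreed within sampling noise: the median squared replicate difference was 5.29 times that of noise in Nup154 GKD and 71.5 times in the NGVP16 pair.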

Additional observations from a re-analysis of the deposited data

How the results depend on the processing

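Counts are given in the order SETDB1, wde and Nup154 GKD against the NGVP16 pair, where 3, 5 and 4 ribosomal protein genes were called. TMM over genes outside the set gave 7 in Nup154 GKD, where 3916 of all 10105 genes were called. Totals over all genes are given here for either direction. Ribosomal protein scaling gave 0, 0 and 1, and for ribosome biogenesis 0, 2 and 7 and for RNA polymerase I 0, 1 and 4. Of all 10105 genes 754, 1798 and 1455 were called there. No filter gave 8 in both wde and Nup154 GKD, where 3397 and 3648 of 14266 genes were called. All 12 libraries gave 12 and 8 there, where 3795 and 3741 of 10790 genes were. Removing the length trend gave 7 and 28 in SETDB1 and wde GKD, where 3742 and 4943 of 10105 genes were called. It gave 3 in SETDB1 against Nup154 GKD, 1 in wde against Nup154 GKD and 1 between the control pairs. Of all genes 1195, 571 and 707 were called in those comparisons. With the virgin pair as control wde GKD had 3, Nup154 GKD 1, and RNA polymerase I in SETDB1 GKD 5. Of all genes 4388 and 4109 were called in wde and Nup154 GKD against that pair. With the length trend removed as well, an alternative chosen after seeing the data, the counts were 48, 68 and 21. Of all genes 5313, 6205 and 5747 were called then. DESeq2 gave 8, 20 and 14, and 1 in SETDB1 against Nup154 GKD, where it called 3331, 4460, 4481 and 1245 of all genes. The median log2 fold change of the ribosomal protein genes went to -0.0019 in wde GKD, by construction, under ribosomal protein scaling, to -0.0149 in wde against Nup154 GKD, and reversed to -0.0506 in SETDB1 against wde GKD. Removing the length trend gave -0.60 in wde against Nup154 GKD and reversed the median between the control pairs to 0.38. Apart from the scaling to the set itself, the cause was not tested.

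With the replicate number as a block, 0, 3 and 2 ribosomal protein genes were called, 22, 25 and 25 biogenesis genes and 7, 8 and 8 RNA polymerase I genes. Of all 10049 genes 1651, 2904 and 3138 were called in either direction. The numbers share no stated origin. The correlation of replicate differences over 6984 genes was 0.387 between SETDB1 and wde GKD. In the other 5 pairs of sets it lay between -0.14 and -0.0022. With a single difference per set, these values cannot decide whether the numbers pair the samples. With the NGVP16 numbers crossed, chosen after seeing the data, wde GKD had 5.

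Leaving out 1 library at a time, members called ran from 0 to 66 in SETDB1 GKD, 0 to 72 in wde GKD, 1 to 62 in Nup154 GKD and 0 to 26 between the control pairs, and were 0 between knockdowns. The medians ran from -1.29 to 0.14, from -1.60 to -0.15 and from -1.25 to 0.22, from 0.04 to 0.45 for SETDB1 against wde GKD, from -0.223 to 0.0358 for SETDB1 against Nup154 GKD, from -0.56 to -0.21 for wde against Nup154 GKD and from -0.79 to 0.73 between the control pairs. Biogenesis genes called ran from 2 to 23, 11 to 26 and 13 to 25, and RNA polymerase I genes from 1 to 7, 0 to 8 and 5 to 8. Over 65 single-gene results and 914 alternative values, 740 kept direction and side of the threshold, 153 kept direction only, 21 gained a call and 0 reversed. With n = 2 the spread of the NGVP16 pair enters every comparison with it, and no detection limit is given from the simulated counts.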

Other observations

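In the adult control pair, left out above, the ribosomal protein genes took 0.398% and 0.482% of 471770 and 682565 counts. These libraries were the shallowest of the 12.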
